A study of Mus musculus with 20 samples.

Results

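The genes described here are 10 targets of the tumour suppressor p53 or of the growth arrest programmes that overlap with it, taken by name from a liver gene count table of 56748 genes. They are Cdkn1a, Ccng1, Gadd45a and Gadd45b, which act on the cell cycle, Bax, Bbc3, Trp53inp1 and Phlda3, which act on cell death and survival signalling, and Mdm2 and Sesn1, which restrain p53 and growth signalling. All 10 were in the table, and all 10 were among the 15669 genes that passed the filter on low counts. The livers came from mice fasted for 24 h, with 4 RNA sequencing libraries in each of 5 groups. By label, Cpt1DKO lacked Cpt1a and Cpt1b in liver, Cpt2KO lacked Cpt2, TKO lacked all of these, and Cpt2PparaDKO lacked Cpt2 together with Ppara. Control carried floxed Cpt1a, Cpt1b and Cpt2 alleles, and none of the groups was a control with a floxed Ppara allele. The labels name no Cre driver, age or sex. They do not tie libraries to animals either, and the p-values therefore speak of differences among these libraries, some of which may be technical.

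p53 is a transcription factor that is kept low by the ubiquitin ligase MDM2 and accumulates when DNA is damaged or cells are stressed. It then switches on genes that halt the cell cycle, repair DNA or trigger apoptosis, and Mdm2 is itself a target, which closes a feedback loop. In hepatocytes, several of these genes also answer to fasting, to lipid overload and to the integrated stress response, and Cdkn1a can rise without p53. The carnitine shuttle moves long-chain fatty acids into mitochondria: CPT1 makes acylcarnitines, CPT2 turns them back into acyl-CoA, and PPARalpha, the product of Ppara, drives the genes that burn fat in fasting. The question put to the members was how their RNA levels differed when one or several of these steps were lost.

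p53 binds a pair of consensus decamers separated by a short spacer, so the promoter windows of the members were read for that decamer, to show which of them carry one close to the start of transcription. RefSeq promoter sequences (GRCm38.p6, 250 bases before to 50 after a start) were matched for 9 of the 10 members, in 13 windows, and Trp53inp1 had no entry. The decamer consensus of p53, which reads the same on both strands, matched in windows of 6 members, and 1 member, Cdkn1a, held 2 matches within a spacer of up to 13 bases. Among all 27025 genes of the table, 9.55% held a match and 0.074% held such a pair. The sequences below, 5′ to 3′ on the strand of each gene, show the matched decamers in capitals, with the whole window of the upstream of 2 Cdkn1a starts and 40 bases around the match in the others.
Cdkn1a, chr17:29090729-29091028, plus strand: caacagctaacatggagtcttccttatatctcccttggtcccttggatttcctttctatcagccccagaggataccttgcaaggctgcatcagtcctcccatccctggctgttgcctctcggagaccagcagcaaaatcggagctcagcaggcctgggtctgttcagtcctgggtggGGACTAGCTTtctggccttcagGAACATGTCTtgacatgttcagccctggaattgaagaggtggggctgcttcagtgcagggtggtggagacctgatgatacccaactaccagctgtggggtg
Mdm2, chr10:117710920-117710959, minus strand: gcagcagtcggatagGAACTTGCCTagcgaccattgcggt
Ccng1, chr11:40755447-40755486, minus strand: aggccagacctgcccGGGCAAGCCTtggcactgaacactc
Bax, chr7:45467075-45467114, minus strand: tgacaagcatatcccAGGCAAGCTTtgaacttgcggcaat
Gadd45a, chr6:67037423-67037462, minus strand: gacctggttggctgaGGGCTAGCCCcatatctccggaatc
Sesn1, chr10:41887251-41887290, plus strand: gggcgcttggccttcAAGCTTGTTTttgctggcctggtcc
Counted from the start of transcription, where -1 is the base before it, the Cdkn1a matches began at -73 and -51. The matches of the others began at -186 (Mdm2), -185 (Ccng1), -201 (Bax), -40 (Gadd45a) and -173 (Sesn1). The windows of Bbc3, Gadd45b and Phlda3 held no match, nor did those of the downstream Cdkn1a start and of the upstream Sesn1 start. Matched letters are a description of these windows and say nothing about whether p53 bound there in these livers.

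Total counts per library were 14129595 to 20273303, apart from 36452673 in Cpt2PparaDKO replicate 1. Cpt1a was at 146 to 173 CPM (counts put on one scale for library size) in Cpt1DKO and 118 to 145 CPM in TKO, against 940 to 1127 CPM in Control. Cpt2 was at 114 to 165 CPM in Cpt2KO, 92.5 to 115 CPM in TKO and 28.5 to 39.1 CPM in Cpt2PparaDKO, against 211 to 267 CPM in Control, and Ppara was at 54.3 to 83.3 CPM in Cpt2PparaDKO, against 189 to 277 CPM in Control. Cpt1b was low throughout and went against the labels: it was at 0.620 to 1.11 CPM in Cpt1DKO and 2.38 to 3.03 CPM in TKO, which lack it by label, against 0.293 to 0.763 CPM in Control. The loss of Cpt1b in these groups therefore rests on the label alone. Cpt2KO replicate 3 and Cpt2PparaDKO replicate 4 had the Xist level of female animals (981 and 1266 CPM), whereas the other libraries had at most 1.05 CPM. Cpt2PparaDKO replicate 4 also stood apart from its group, with a median correlation to it of 0.952, against 0.983 to 0.986 for the other libraries of that group. Calls of the members, and calls against Control of the other genes named, that change without these libraries are given with and without them. Summed CPM of 8 hepatocyte markers was 81241 to 89610 in Cpt1DKO, 48993 to 76530 in Cpt2KO, 40799 to 72185 in TKO and 38172 to 43780 in Cpt2PparaDKO, against 86282 to 107083 in Control, and none of them was at 0 in any library. In bulk liver, fewer cells of a type and less RNA per cell cannot be told apart.

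Against Control, the cell cycle inhibitor Cdkn1a was higher in all 4 mutant groups, by 3.32 to 5.46 times. Its calls in Cpt1DKO and Cpt2PparaDKO were lost in several alternative fits, given with the gene. Gadd45b was called higher in Cpt1DKO, Cpt2KO and TKO, by 3.54 to 4.83 times, and was 1.88 times Control in Cpt2PparaDKO, which was not called. Bax, Phlda3 and Ccng1 rose by smaller steps in Cpt2PparaDKO and TKO, Bax and Phlda3 also in Cpt2KO, and Gadd45a rose in Cpt2PparaDKO. Trp53inp1 fell in Cpt2KO. Mdm2, Bbc3 and Sesn1 were called in none of the comparisons. Called means here an adjusted p under 0.05 in edgeR's quasi-likelihood test, with adjustment over all genes tested.

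In Cpt1DKO against Control, 2 of 10 members were called, both higher, where 5.55% of all genes tested were called and 2.44% were called higher. In Cpt2KO against Control, 5 members were called, 4 higher and 1 lower, where 33.4% of all genes were called and 16.2% were called higher. In TKO against Control, 5 members were called, all higher, where 27.4% of all genes were called and 13.0% were called higher. In Cpt2PparaDKO against Control, 5 members were called, all higher, where 32.5% of all genes were called and 14.9% were called higher. Members had a median log2 fold change of 0.86 in Cpt2PparaDKO, 0.40 in TKO, 0.20 in Cpt2KO and 0.42 in Cpt1DKO, and the median of all genes tested lay between -0.01 and 0.00 in these comparisons. The members' share of calls stood above the share of all genes in each of these comparisons. However, 10 genes are few, they were chosen by name with earlier results of these data known, and the 4 comparisons share the Control libraries. The difference in shares is therefore no test of the members as a set.

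**Figure D1:**
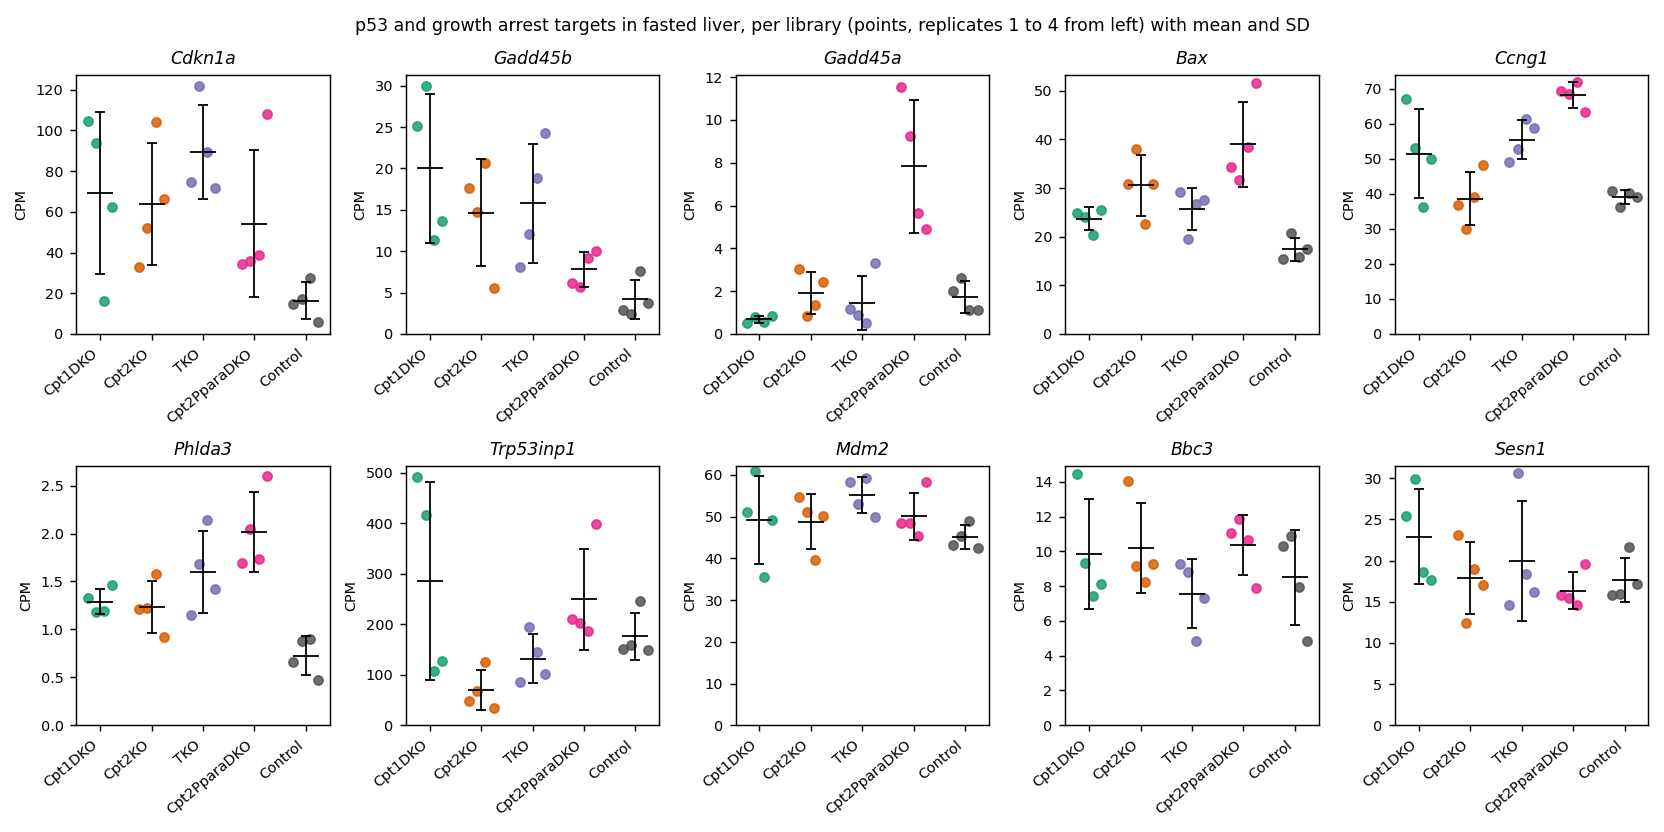
Level of each member in CPM (linear axis from 0) in every library of the 5 groups, with points for replicates 1 to 4 from left and a black bar with whiskers for the mean and SD. Cdkn1a and Gadd45b are high with wide spread in Cpt1DKO, Cpt2KO and TKO, Gadd45a is high in Cpt2PparaDKO (4.89 to 11.6 CPM), and Mdm2, Bbc3 and Sesn1 overlap between most groups.

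Cdkn1a (ENSMUSG00000023067, chromosome 17, 29309950 to 29319701, GRCm39, plus strand) encodes p21, which stops cyclin-dependent kinases and so the cell cycle. It was at 104, 93.9, 16.2 and 62.6 CPM in replicates 1 to 4 of Cpt1DKO, at 32.9, 52.1, 104 and 66.1 CPM in Cpt2KO, at 74.4, 122, 89.5 and 71.5 CPM in TKO and at 34.2, 35.9, 38.7 and 108 CPM in Cpt2PparaDKO. Control libraries held 14.9, 17.3, 27.6 and 5.79 CPM. All libraries of Cpt2KO, TKO and Cpt2PparaDKO lay above all of Control, while Cpt1DKO replicate 3 lay within the Control range. The log2 fold change was 2.08 in Cpt1DKO (SE 0.58, adjusted p = 0.0451), 1.97 in Cpt2KO (SE 0.57, adjusted p = 0.0145), 2.45 in TKO (SE 0.58, adjusted p = 0.00507) and 1.73 in Cpt2PparaDKO (SE 0.57, adjusted p = 0.0288). The Cpt1DKO call was lost without any 1 of the Control libraries or of Cpt1DKO replicates 1, 2 and 4 (log2 fold change 1.82 to 2.47, adjusted p 0.0511 to 0.14), and was kept without Cpt1DKO replicate 3. It was also lost without the filter on low counts (adjusted p = 0.0913), with a replicate block (0.0822) and with the compared groups alone (0.0911). The Cpt2PparaDKO call rested on replicate 4: without that library the log2 fold change was 1.18 and the adjusted p 0.131, and without both libraries of female pattern they were 1.18 and 0.117. It was also lost without Control replicate 1, 2 or 4 (adjusted p 0.063, 0.0573 and 0.078), without the filter on low counts (0.0574) and with a replicate block (0.0609). The Cpt2KO and TKO calls were kept when any 1 library was left out.

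Ccng1 (ENSMUSG00000020326, chromosome 11, 40639379 to 40646138, minus strand) encodes cyclin G1, a p53 target that recruits a phosphatase to MDM2. Its libraries read 67.1, 53.02, 36.2 and 49.9 CPM in Cpt1DKO, 36.9, 30.1, 39.2 and 48.4 CPM in Cpt2KO, 49.1, 52.8, 61.5 and 58.8 CPM in TKO, and 69.5, 68.7, 72.0 and 63.3 CPM in Cpt2PparaDKO, against 40.8, 36.4, 40.2 and 39.0 CPM in Control. Every TKO and Cpt2PparaDKO library lay above every Control library, and Cpt2KO overlapped with Control on both sides. Ccng1 rose in TKO (log2 fold change 0.51, SE 0.15, adjusted p = 0.0148) and in Cpt2PparaDKO (0.81, SE 0.15, adjusted p = 0.000357), was not called in Cpt1DKO (0.40, SE 0.15, adjusted p = 0.121), and differed from Control in Cpt2KO by -0.02 (SE 0.15, adjusted p = 0.944). Without Cpt1DKO replicate 3, the library that was also low in Cdkn1a, Ccng1 was called in Cpt1DKO (0.54, adjusted p = 0.0209).

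Gadd45a and Gadd45b encode small stress proteins that bind p21, PCNA and upstream kinases of the p38 and JNK pathways. Gadd45a is the classical p53 target of the family, and Gadd45b answers to NF-kappaB and TGF-beta signals and, in mouse liver, to fasting and regeneration. Gadd45b (ENSMUSG00000015312, chromosome 10, 80765907 to 80768038, plus strand) was at 25.1, 29.9, 11.3 and 13.6 CPM in Cpt1DKO, 17.7, 14.8, 20.6 and 5.59 CPM in Cpt2KO, 8.06, 12.1, 18.9 and 24.3 CPM in TKO, and 6.21, 5.71, 9.21 and 10.1 CPM in Cpt2PparaDKO, against 2.88, 2.36, 7.63 and 3.80 CPM in Control. Cpt1DKO and TKO did not overlap with Control, Cpt2KO overlapped through its replicate 4, and 2 of the 4 Cpt2PparaDKO libraries lay below Control replicate 3. Gadd45b rose in Cpt1DKO (log2 fold change 2.27, SE 0.47, adjusted p = 0.00952), in Cpt2KO (1.82, SE 0.47, adjusted p = 0.00582) and in TKO (1.94, SE 0.47, adjusted p = 0.00484). These calls were kept when any 1 library was left out. In Cpt2PparaDKO its difference of 0.91 was not called (SE 0.46, adjusted p = 0.144), and without Control replicate 3 it was called (1.38, adjusted p = 0.043).

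Gadd45a (ENSMUSG00000036390, chromosome 6, 67012080 to 67014441, minus strand) followed another pattern. It was at 0.53, 0.78, 0.56 and 0.85 CPM in Cpt1DKO, 3.04, 0.85, 1.36 and 2.42 CPM in Cpt2KO, 1.15, 0.88, 0.51 and 3.29 CPM in TKO, and 11.6, 9.23, 5.66 and 4.89 CPM in Cpt2PparaDKO, against 1.99, 2.63, 1.11 and 1.11 CPM in Control. Every Cpt2PparaDKO library was above every library of the other groups, and every Cpt1DKO library was below every Control library. The rise in Cpt2PparaDKO had a log2 fold change of 2.20 (SE 0.47, adjusted p = 0.00126), and the lower level in Cpt1DKO was not called (-1.31, SE 0.54, adjusted p = 0.161). Counts outside Cpt2PparaDKO were 7 to 72 per library. The lncRNA gene E230016M11Rik overlaps Gadd45a on the opposite strand, and as the sources used here do not give the strand setting of the counting, reads of the pair cannot be told apart. E230016M11Rik was at 1.63 to 4.19 CPM in Cpt2PparaDKO, against 1.39 to 3.71 CPM in Control and 0.596 to 2.54 CPM in Cpt1DKO. In Cpt2KO it was at 0.434 to 1.44 CPM and in TKO at 0.607 to 1.15 CPM, wholly below Cpt2PparaDKO, as Gadd45a was. The part of its reads in the Gadd45a values was not tested.

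Bax (ENSMUSG00000003873, chromosome 7, 45111121 to 45116322, minus strand) encodes the pore protein that opens the outer mitochondrial membrane in apoptosis. Its libraries read 24.9, 24.0, 20.3 and 25.5 CPM in Cpt1DKO, 30.8, 38.0, 22.7 and 30.8 CPM in Cpt2KO, 29.1, 19.5, 26.7 and 27.6 CPM in TKO, and 34.3, 31.7, 38.4 and 51.5 CPM in Cpt2PparaDKO, against 15.5, 20.7, 15.8 and 17.5 CPM in Control. Only TKO replicate 2 and Cpt1DKO replicate 3 of the 16 mutant libraries lay within the Control range. Bax rose in Cpt2KO (log2 fold change 0.82, SE 0.17, adjusted p = 0.000829), TKO (0.57, SE 0.17, adjusted p = 0.0159) and Cpt2PparaDKO (1.17, SE 0.17, adjusted p = 3.31e-05), and its difference of 0.45 in Cpt1DKO was not called (SE 0.17, adjusted p = 0.126). That difference was called without the libraries of female pattern, neither of which belongs to Cpt1DKO or Control (0.45, adjusted p = 0.0358). The TKO call was lost without TKO replicate 1 or Control replicate 1 (adjusted p 0.0537 and 0.0506). The overlapping genes Gm45808 (Bax), 1700023B13Rik (Cdkn1a) and 9930024M15Rik (Sesn1) had at most 4, 39 and 5 counts in any library.

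Bbc3 (ENSMUSG00000002083, chromosome 7, 16042318 to 16052130, plus strand) encodes PUMA, the BH3-only protein through which p53 sets off apoptosis. It averaged 9.83 ± 3.17 CPM in Cpt1DKO, 10.2 ± 2.61 CPM in Cpt2KO, 7.57 ± 1.99 CPM in TKO and 10.4 ± 1.71 CPM in Cpt2PparaDKO, against 8.50 ± 2.73 CPM in Control (SD, n = 4 each). All groups overlapped, and its log2 fold changes against Control lay between -0.17 and 0.29 with SE of 0.26. Bax and Bbc3, both promoters of apoptosis, thus differed in whether they were called, and the difference between the 2 genes was not tested.

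Phlda3 (ENSMUSG00000041801, chromosome 1, 135693857 to 135696874, plus strand) encodes a pleckstrin homology protein that holds back AKT and is induced by p53. It was low, at 1.32, 1.18, 1.20 and 1.47 CPM in Cpt1DKO, 1.21, 1.23, 1.57 and 0.92 CPM in Cpt2KO, 1.15, 1.68, 2.15 and 1.42 CPM in TKO, and 1.69, 2.05, 1.73 and 2.60 CPM in Cpt2PparaDKO, against 0.66, 0.88, 0.90 and 0.47 CPM in Control. Every mutant library lay above every Control library, on counts of 8 to 13 per Control library. Phlda3 rose in Cpt2KO (log2 fold change 0.77, SE 0.30, adjusted p = 0.0494), TKO (1.15, SE 0.29, adjusted p = 0.00542) and Cpt2PparaDKO (1.47, SE 0.28, adjusted p = 0.000519), and was not called in Cpt1DKO (0.84, SE 0.30, adjusted p = 0.101). The Cpt2KO call lay at the threshold. It was lost without Cpt2KO replicate 1, 2 or 3 or Control replicate 1 or 4 (0.63 to 0.78, adjusted p 0.067 to 0.139) and without the libraries of female pattern (0.64, adjusted p = 0.124). DESeq2 did not make it either (adjusted p = 0.066), nor did edgeR without the filter on low counts (0.151), with a replicate block (0.0639) or with the compared groups alone (0.106).

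Trp53inp1 (ENSMUSG00000028211, chromosome 4, 11156431 to 11174379, plus strand) encodes a p53-induced nuclear protein that promotes arrest, apoptosis and autophagy. Its libraries read 491, 418, 107 and 128 CPM in Cpt1DKO, 48.2, 68.3, 125 and 35.0 CPM in Cpt2KO, 86.5, 195, 145 and 102 CPM in TKO, and 211, 202, 187 and 398 CPM in Cpt2PparaDKO, against 152, 158, 246 and 149 CPM in Control. Cpt2KO lay wholly below Control, and Cpt1DKO was split between 2 libraries above Control and 2 below it. Trp53inp1 fell in Cpt2KO (log2 fold change -1.35, SE 0.49, adjusted p = 0.0428) and was not called in Cpt1DKO (0.70, SE 0.48, adjusted p = 0.435), TKO (-0.42, SE 0.48, adjusted p = 0.57) or Cpt2PparaDKO (0.50, SE 0.48, adjusted p = 0.456). The Cpt2KO call was lost without any 1 of the Control libraries or of Cpt2KO replicates 1, 2 and 4 (-1.41 to -1.13, adjusted p 0.0594 to 0.121). It was also lost without the filter on low counts (adjusted p = 0.113) and with a replicate block (0.0581). Without the libraries of female pattern it was kept, with a log2 fold change of -1.79 (adjusted p = 0.0118).

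Mdm2 (ENSMUSG00000020184, chromosome 10, 117524780 to 117546663, minus strand), the feedback inhibitor of p53, averaged 49.1 ± 10.5 CPM in Cpt1DKO, 48.8 ± 6.51 CPM in Cpt2KO, 55.1 ± 4.38 CPM in TKO and 50.1 ± 5.62 CPM in Cpt2PparaDKO, against 45.0 ± 2.93 CPM in Control (SD, n = 4 each). The TKO libraries, at 58.3, 52.98, 59.2 and 49.97 CPM, all lay above the Control libraries, at 43.2, 45.4, 49.0 and 42.6 CPM. The log2 fold change in TKO was 0.29 (SE 0.14, adjusted p = 0.119), and in the other mutant groups it was 0.12 to 0.15. With the compared groups alone in the fit, the TKO value was called (0.32, adjusted p = 0.0159). Sesn1 (ENSMUSG00000038332, chromosome 10, 41685931 to 41784420, plus strand) encodes sestrin 1, which restrains mTORC1. It averaged 22.9 ± 5.78 CPM in Cpt1DKO, 17.9 ± 4.41 CPM in Cpt2KO, 19.9 ± 7.28 CPM in TKO and 16.4 ± 2.22 CPM in Cpt2PparaDKO, against 17.6 ± 2.72 CPM in Control (SD, n = 4 each), and its log2 fold changes of -0.11 to 0.38 were not called.

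**Figure D2:**
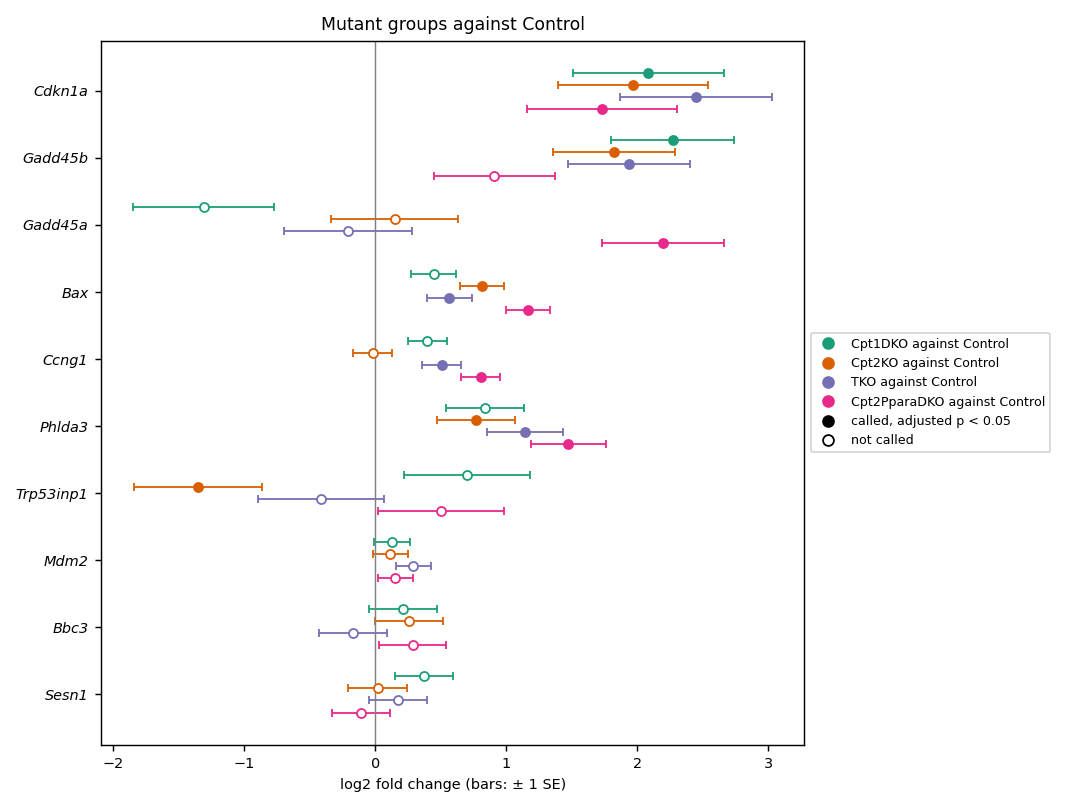
Log2 fold change of each member in the 4 mutant groups against Control (horizontal axis), with bars of 1 SE from edgeR; filled points were called at an adjusted p under 0.05. Cdkn1a is filled in all 4 comparisons, at 1.73 to 2.45, Gadd45a in Cpt2PparaDKO alone, and Mdm2, Bbc3 and Sesn1 in none.

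Per length, the members differed widely in level. By the deposited FPKM values (fragments scaled by gene length and library size), Trp53inp1 led in Control at 26.7 ± 7.12 FPKM, followed by Ccng1 at 10.9 ± 0.563 FPKM, Bax at 10.8 ± 1.48 FPKM and Mdm2 at 8.70 ± 0.572 FPKM (SD, n = 4). Cdkn1a at 4.53 ± 2.48 FPKM, Sesn1 at 4.35 ± 0.682 FPKM, Bbc3 at 3.92 ± 1.25 FPKM and Gadd45b at 2.58 ± 1.48 FPKM came next, and Gadd45a at 0.951 ± 0.409 FPKM and Phlda3 at 0.458 ± 0.128 FPKM were lowest. Ccng1 and Bax, and the neighbours from Cdkn1a to Bbc3, differed by less than their SD. In TKO, Cdkn1a reached 24.8 ± 6.53 FPKM and stood above all other members by its mean, next to Trp53inp1 at 20.2 ± 7.56 FPKM. In Cpt2PparaDKO, Trp53inp1 led at 38.2 ± 15.2 FPKM and Bax followed at 24.5 ± 5.52 FPKM.

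Comparisons between mutant groups set the members side by side where Ppara or different steps of the shuttle were lost. Cpt2 RNA was also lower in Cpt2PparaDKO (28.5 to 39.1 CPM) than in Cpt2KO (114 to 165 CPM). The added loss of Ppara cannot be told apart from that difference. In Cpt2PparaDKO against Cpt2KO, 3 of 10 members were called, all higher, where 24.4% of all genes tested were called. Ccng1 rose by 0.82 (log2, SE 0.15, adjusted p = 0.000365), Trp53inp1 by 1.85 (SE 0.50, adjusted p = 0.0118) and Gadd45a by 2.05 (SE 0.46, adjusted p = 0.00273), with no overlap between the libraries of the groups. Cdkn1a differed by -0.24 (SE 0.55, adjusted p = 0.797), and Gadd45b by -0.91 (SE 0.44, adjusted p = 0.145), which was called without Cpt2KO replicate 4 (-1.19, adjusted p = 0.0466). Phlda3, at 0.70 (SE 0.27, adjusted p = 0.0611), was called without Cpt2KO replicate 3 (0.85, adjusted p = 0.0416).

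In Cpt2PparaDKO against TKO, 2 members were called, where 19.3% of all genes were called: Bax rose by 0.60 (log2, SE 0.17, adjusted p = 0.0139) and Gadd45a by 2.40 (SE 0.47, adjusted p = 0.00103). The Bax call was lost without TKO replicate 2 (0.49, adjusted p = 0.0616). Against Cpt1DKO, 3 members of Cpt2PparaDKO were called, where 21.9% of all genes were called. Bax rose by 0.72 (SE 0.17, adjusted p = 0.00376), Gadd45a rose by 3.504 (SE 0.52, adjusted p = 6.55e-05), and Gadd45b fell by 1.36 on the log2 scale (SE 0.44, adjusted p = 0.0344). The Gadd45b call was lost without any 1 of the Cpt2PparaDKO libraries or of Cpt1DKO replicates 1 and 2 (-1.49 to -1.10, adjusted p 0.0507 to 0.103). It was also lost without the filter on low counts (-1.34, adjusted p = 0.0991). Ccng1, at 0.41 (adjusted p = 0.0545), was called without Cpt1DKO replicate 1 (0.56, adjusted p = 0.0113), without Cpt2PparaDKO replicate 4 (0.46, adjusted p = 0.0466) and without the libraries of female pattern (0.46, adjusted p = 0.0475). Gadd45a was thus higher in Cpt2PparaDKO than in each other group by its own test, and these comparisons share the Cpt2PparaDKO libraries.

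In Cpt2KO against Cpt1DKO, 1 member was called, where 14.1% of all genes were called. It was Trp53inp1, which fell by 2.05 on the log2 scale (SE 0.50, adjusted p = 0.0126) in spite of an overlap between the libraries. That call was lost with the compared groups alone in the fit (-2.05, adjusted p = 0.104). Gadd45a, higher in every Cpt2KO library than in any Cpt1DKO library, was not called in edgeR (1.46, SE 0.53, adjusted p = 0.0721) and was called by DESeq2 (1.49, adjusted p = 0.0292) and with the compared groups alone (1.47, adjusted p = 0.04998). Without Cpt2KO replicate 3, Bax was also called (0.49, adjusted p = 0.048), as it was without both libraries of female pattern (0.50, adjusted p = 0.0168). Ccng1, at -0.42 (SE 0.15, adjusted p = 0.0663), was called without Cpt1DKO replicate 3 (-0.55, adjusted p = 0.0145) or Cpt2KO replicate 4 (-0.54, adjusted p = 0.0281).

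In TKO against Cpt2KO, edgeR called 0 members, where 0.0511% of all genes were called. At an unadjusted p under 0.05 there was 1, Ccng1, which was 0.52 higher (log2, SE 0.15, adjusted p = 0.282), and DESeq2 called 0. The shares of all genes in this paragraph are at the adjusted threshold. Counts at an unadjusted p cannot be set against them and are no result about the members. In TKO against Cpt1DKO, edgeR called 0, where 4.65% of all genes were called. There the 1 member at an unadjusted p under 0.05 was Trp53inp1 (-1.11, SE 0.49, adjusted p = 0.211), and DESeq2 called 0. The interaction compared the effect of losing Cpt2 where Cpt1a and Cpt1b were lost with its effect where they were present. edgeR called 0 members in it, where 2.7% of all genes were called, with 2 at an unadjusted p under 0.05. These were Gadd45b (-2.16, SE 0.63, adjusted p = 0.0765) and Bax (-0.70, SE 0.24, adjusted p = 0.117). Gadd45b was called there by DESeq2 (-2.18, adjusted p = 0.00727), without Cpt2KO replicate 4 (-2.43, adjusted p = 0.0349) and without Control replicate 3 (-2.63, adjusted p = 0.0451), and Bax was called without the libraries of female pattern (-0.83, adjusted p = 0.0178). The negative values mean that adding the loss of Cpt2 to that of Cpt1a and Cpt1b changed these genes less upward than the loss of Cpt2 did against Control.

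**Figure D3:**
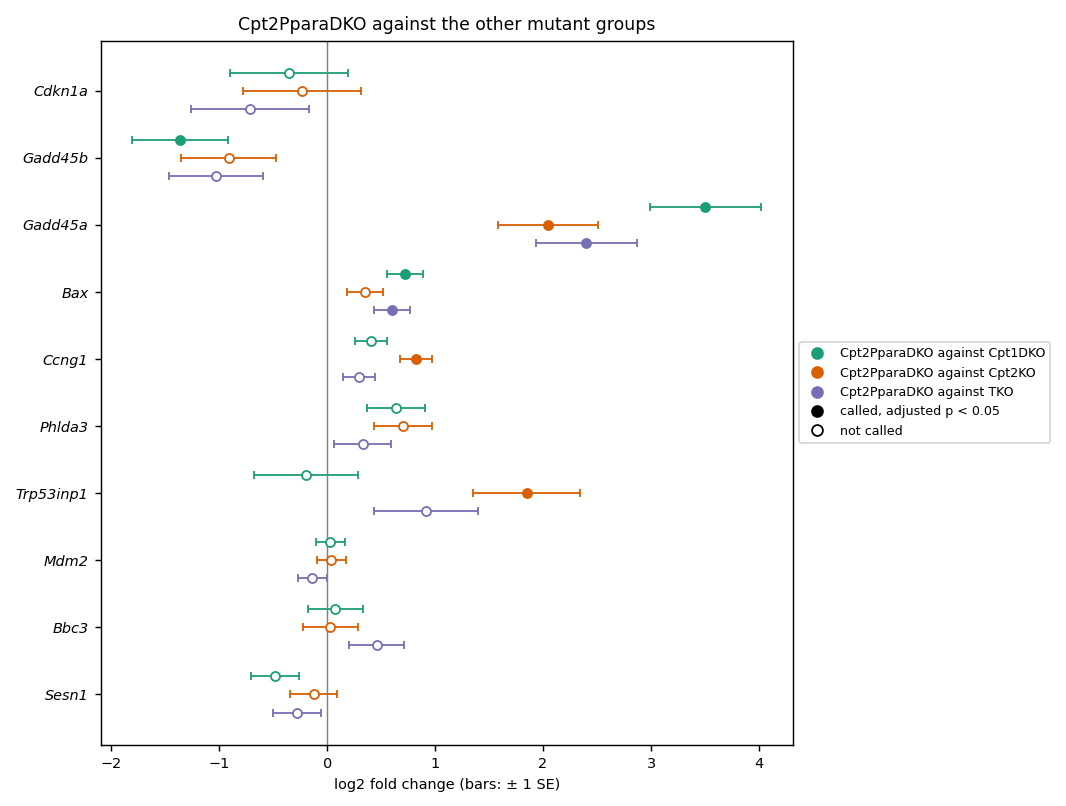
Log2 fold change of each member in Cpt2PparaDKO against Cpt1DKO, Cpt2KO and TKO (horizontal axis), with bars of 1 SE from edgeR; filled points were called at an adjusted p under 0.05. Gadd45a is filled in all 3 comparisons, at 2.05 to 3.504, and Gadd45b lies below 0 in all 3 and is filled against Cpt1DKO.

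Trp53, the gene of p53 itself, was at 25.2 ± 2.64 CPM in Cpt1DKO, 27.3 ± 2.496 CPM in Cpt2KO, 25.1 ± 4.21 CPM in TKO and 34.7 ± 9.41 CPM in Cpt2PparaDKO, against 21.0 ± 2.83 CPM in Control (SD, n = 4 each). It rose in Cpt2PparaDKO (log2 fold change 0.73, SE 0.16, adjusted p = 0.00156), where replicate 4 held the highest value, and was not called in Cpt1DKO (0.27, SE 0.16, adjusted p = 0.363), Cpt2KO (0.38, SE 0.16, adjusted p = 0.0752) or TKO (0.26, SE 0.16, adjusted p = 0.255). Without the libraries of female pattern it was also called in Cpt2KO (0.45, adjusted p = 0.0133). Mdm4, which encodes the partner of MDM2 in restraining p53, lay between 73.7 and 82.2 CPM in all group means and was not called against Control. RNA levels do not measure p53 protein, which is controlled mainly by its stability. Of 17 tested genes of 18 listed for p53 and its regulators, 0 were called in Cpt1DKO and 0 in TKO, 4 fell in Cpt2KO, and 2 rose and 2 fell in Cpt2PparaDKO. Those that fell in Cpt2KO included the damage kinase gene Atm (-0.74, SE 0.25, adjusted p = 0.0249), Trp53bp1, a break repair factor (-0.47, SE 0.14, adjusted p = 0.0153), and Pml, a nuclear body protein (-0.44, SE 0.17, adjusted p = 0.0446). The Atm, Trp53bp1 and Pml calls each were lost when some single libraries were left out, in 3, 3 and 6 of 8 fits, and the Pml call also without the libraries of female pattern (-0.38, adjusted p = 0.0947). The 23.5% of this list called in Cpt2KO and in Cpt2PparaDKO lay below the 33.4% and 32.5% of all genes.

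Other p53 targets moved in both directions. Of 32 tested genes of 35 listed, 2 rose and 1 fell in Cpt1DKO, 6 rose and 4 fell in Cpt2KO, 10 rose and 4 fell in TKO, and 12 rose and 5 fell in Cpt2PparaDKO, with median log2 fold changes of 0.19, 0.10, 0.17 and 0.29. The share called was 53.1% in Cpt2PparaDKO and 43.8% in TKO, where 32.5% and 27.4% of all genes were called, 31.2% in Cpt2KO, where 33.4% were, and 9.38% in Cpt1DKO, where 5.55% were. The share called higher was 18.8% in Cpt2KO, near the 16.2% of all genes, and 31.2% in TKO and 37.5% in Cpt2PparaDKO, where 13.0% and 14.9% of all genes were called higher. In Cpt1DKO the rises numbered 5 without the libraries of female pattern. Tnfrsf10b, a death receptor gene, rose to 2.47 ± 1.04 CPM in Cpt2KO, 3.13 ± 0.802 CPM in TKO and 2.21 ± 0.464 CPM in Cpt2PparaDKO, against 0.481 ± 0.405 CPM in Control (SD, n = 4 each), and its log2 fold changes were 2.39 (SE 0.51, adjusted p = 0.00103), 2.73 (SE 0.50, adjusted p = 0.000399) and 2.24 (SE 0.50, adjusted p = 0.00182). Gdf15, a stress hormone gene that also answers to the integrated stress response, was called higher in all 4 groups, by 2.32 to 4.25 on the log2 scale. Steap3, an endosomal iron reductase gene, went the other way, with 19.2 ± 4.42 CPM in Cpt1DKO, 7.39 ± 1.43 CPM in Cpt2KO, 7.88 ± 1.72 CPM in TKO and 14.5 ± 2.71 CPM in Cpt2PparaDKO, against 37.7 ± 8.62 CPM in Control, and it was called lower in each. Among genes singled out after their values were seen, Eda2r, a p53-induced TNF receptor family gene, rose in TKO (2.499, SE 0.45, adjusted p = 0.000336) and Cpt2PparaDKO (3.07, SE 0.45, adjusted p = 3.51e-05) and was not called in Cpt2KO (0.88, SE 0.48, adjusted p = 0.174), and the exonuclease gene Aen rose in Cpt2KO, TKO and Cpt2PparaDKO by 0.68 to 1.08. Without the libraries of female pattern, Eda2r and Aen were also called in Cpt1DKO (1.48, adjusted p = 0.0393, and 0.65, adjusted p = 0.00438), and without Control replicate 1 Eda2r was called in Cpt1DKO and Cpt2KO (adjusted p = 0.0284 and 0.0432). Fas, another death receptor gene also chosen after its values were seen, fell in Cpt2PparaDKO (-0.83, SE 0.17, adjusted p = 0.000923), while its calls in Cpt2KO (-0.50, adjusted p = 0.03) and TKO (-0.47, adjusted p = 0.0443) were lost in 5 and 7 of 8 fits that left out single libraries.

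**Figure D4:**
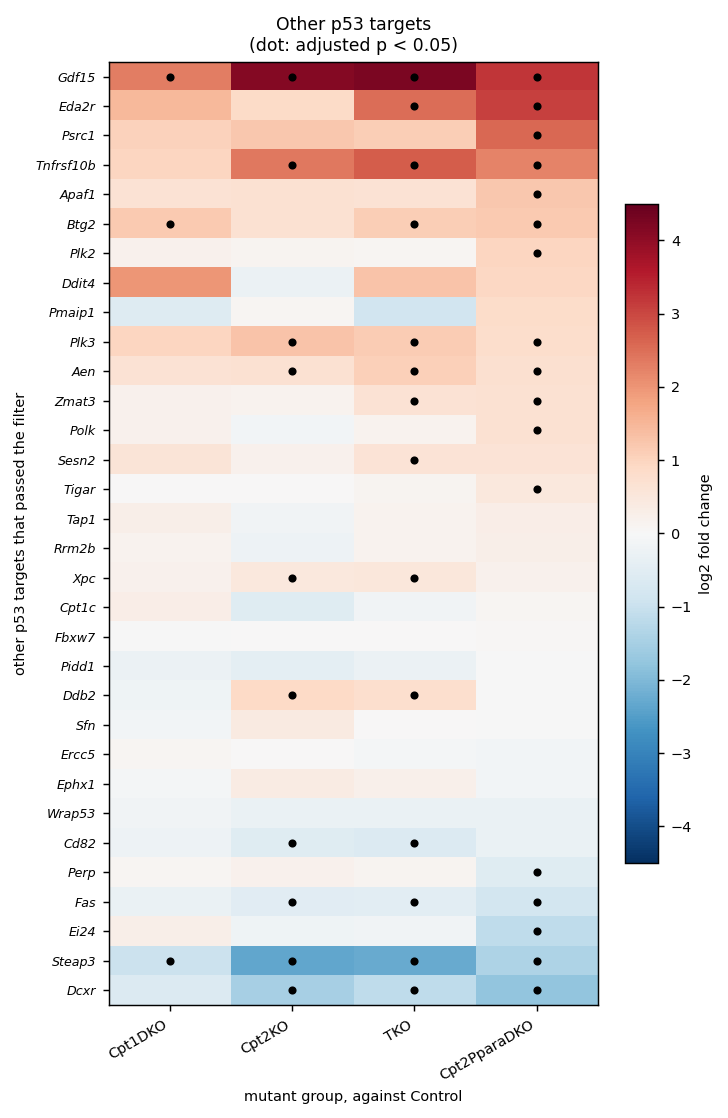
Log2 fold change (colour, red higher and blue lower) of the 32 other p53 targets that passed the filter, in the 4 mutant groups against Control, ordered by the value in Cpt2PparaDKO. A dot marks an adjusted p under 0.05. Gdf15 is dotted and red in all 4 columns and Steap3 is dotted and blue in all 4.

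Genes that carry out the cell cycle did not move one way. In the list of other CDK inhibitors, cyclins and their kinases, 14 of 15 genes were tested. There 1 rose in Cpt1DKO, 1 rose and 1 fell in Cpt2KO, 4 rose and 3 fell in TKO, and 5 rose and 2 fell in Cpt2PparaDKO. The share of this list called was 14.3% in Cpt2KO, below the 33.4% of all genes. In Cpt1DKO it was 7.14%, near the 5.55% of all genes. In TKO and Cpt2PparaDKO it lay above the 27.4% and 32.5% of all genes. Cdk4, the kinase of the cyclin D complexes, rose in all 4 groups, to 43.4 ± 2.74 CPM in Cpt1DKO, 61.9 ± 6.21 CPM in Cpt2KO, 54.0 ± 2.91 CPM in TKO and 47.4 ± 7.55 CPM in Cpt2PparaDKO, against 28.3 ± 1.93 CPM in Control (SD, n = 4 each; adjusted p from 3.08e-07 to 0.00221). Cdkn2c, which encodes the CDK4 inhibitor p18, fell in Cpt2KO, TKO and Cpt2PparaDKO by 0.63, 0.72 and 0.89 on the log2 scale, a call that in Cpt2KO was lost without Cpt2KO replicate 2 or Control replicate 2. Its difference of -0.63 in Cpt1DKO (adjusted p = 0.0611) was called without the libraries of female pattern (-0.62, adjusted p = 0.0438). Of 12 tested proliferation genes of 16 listed, 0 were called in Cpt1DKO, 2 rose and 2 fell in Cpt2KO, 1 rose and 3 fell in TKO, and 4 rose and 2 fell in Cpt2PparaDKO. The share called was 33.3% in Cpt2KO, which is no more than the 33.4% of all genes. It was 33.3% in TKO, against 27.4% of all genes, and lay above the 32.5% of all genes in Cpt2PparaDKO. The replication licensing gene Mcm2 rose to 5.66 ± 0.943 CPM in Cpt2KO, 5.51 ± 1.78 CPM in TKO and 6.07 ± 1.51 CPM in Cpt2PparaDKO, against 1.79 ± 0.300 CPM in Control, while Rrm2, a ribonucleotide reductase subunit gene, fell in Cpt2KO (-1.34, SE 0.46, adjusted p = 0.028) and TKO (-1.54, SE 0.46, adjusted p = 0.0164). In Cpt2PparaDKO the difference of Rrm2 was -0.82 and not called (SE 0.44, adjusted p = 0.158), whereas without replicate 4 of that group it was called (-1.57, adjusted p = 0.00401). The Rrm2 calls were lost without some single libraries, in 4 of 8 fits of Cpt2KO against Control and in 2 of TKO against Control.

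Relatives of Bax and Bbc3 in the BCL2 family included genes called in either direction. Of 14 tested, 0 rose and 1 fell in Cpt1DKO, 1 rose and 4 fell in Cpt2KO, 1 rose and 3 fell in TKO, and 2 rose and 4 fell in Cpt2PparaDKO. The share called was 7.14% in Cpt1DKO, 35.7% in Cpt2KO and 28.6% in TKO, near the 5.55%, 33.4% and 27.4% of all genes, and 42.9% in Cpt2PparaDKO, against 32.5% of all genes. Bmf, a BH3-only gene, fell in all 4 groups, to 6.74 ± 3.05 CPM in Cpt1DKO, 3.40 ± 1.78 CPM in Cpt2KO, 3.02 ± 1.42 CPM in TKO and 5.52 ± 1.66 CPM in Cpt2PparaDKO, against 21.0 ± 5.55 CPM in Control (SD, n = 4 each; adjusted p from 6.25e-05 to 0.0179). Its Cpt1DKO call was lost without Cpt1DKO replicate 1 or 2 or Control replicate 2. Bcl2l1, which encodes the survival protein BCL-XL, fell in Cpt2KO by 0.91 on the log2 scale (SE 0.21, adjusted p = 0.00247). In Cpt2PparaDKO its difference of -0.25 was not called (SE 0.21, adjusted p = 0.391), but without replicate 4 of that group it was (-0.61, adjusted p = 0.00284). In Cpt1DKO its difference of -0.54 (adjusted p = 0.142) was called without the libraries of female pattern (-0.53, adjusted p = 0.0135). Bok, a BAX-like gene, fell in Cpt2KO (-1.13, SE 0.26, adjusted p = 0.00235) and TKO (-0.95, SE 0.26, adjusted p = 0.00954). Of 5 tested genes of 6 listed as relatives of Gadd45a, Gadd45b, Sesn1, Trp53inp1 and Phlda3, 0 were called in Cpt1DKO, 3 fell in Cpt2KO, 1 rose and 2 fell in TKO, and 2 fell in Cpt2PparaDKO. The share called lay above the 33.4%, 27.4% and 32.5% of all genes in Cpt2KO, TKO and Cpt2PparaDKO, but 5 genes are few. Trp53inp2, which acts in autophagy, fell in Cpt2KO, TKO and Cpt2PparaDKO by 0.79, 0.67 and 1.504 on the log2 scale. Sesn3, a sestrin gene, fell in Cpt2KO (-0.62, SE 0.22, adjusted p = 0.0336), and Phlda1, a relative of Phlda3, fell in Cpt2KO, TKO and Cpt2PparaDKO by 2.00, 2.19 and 1.52 on the log2 scale. The Sesn3 call and the Phlda1 call in Cpt2PparaDKO were lost in 4 and 5 of 8 fits that left out single libraries. Without the libraries of female pattern, Trp53inp2 and Phlda1 were also called in Cpt1DKO (-0.42, adjusted p = 0.0482, and -1.60, adjusted p = 0.0232).

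Markers of other cell types moved with some of these groups. In Cpt2PparaDKO, 7 of 8 hepatocyte markers were lower than in Control, 4 of 7 stellate and matrix markers, 1 of 9 macrophage and Kupffer markers and 1 of 3 tested neutrophil markers were higher, and 1 of 5 cholangiocyte markers was lower. Of all genes tested, 32.5% were called against Control in Cpt2PparaDKO, 33.4% in Cpt2KO, 27.4% in TKO and 5.55% in Cpt1DKO. Summed CPM of the 9 macrophage and Kupffer markers was 479 to 576 in Cpt2PparaDKO, against 241 to 493 in Control, and that of the 4 neutrophil markers was 5.29 to 8.70 CPM, against 2.28 to 5.09 CPM in Control, with Ly6g the only one at 0 in any library. Summed stellate and matrix markers stood at 246 to 284 CPM in Cpt2PparaDKO, against 182 to 213 CPM in Control. They also lay wholly above Control in Cpt1DKO (234 to 286 CPM) and Cpt2KO (242 to 338 CPM), and overlapped with it in TKO (201 to 247 CPM). Of the hepatocyte markers, 1 was lower in Cpt1DKO, 5 in Cpt2KO and 4 in TKO. Among 5 cholangiocyte markers, 2 were lower in Cpt2KO and 2 in TKO (median log2 fold change -1.47 and -1.02), with a summed level of 7.61 to 15.03 CPM in Cpt2KO and 10.7 to 20.5 CPM in TKO, against 29.7 to 35.4 CPM in Control. That sum was also wholly below Control in Cpt1DKO (18.5 to 26.5 CPM), and it was at 20.2 to 49.7 CPM in Cpt2PparaDKO. Of 3 tested erythroid markers, 2 were higher and 1 lower in Cpt2KO (median 1.24), with the sum over all 4 at 152 to 518 CPM in Cpt2KO, against 116 to 248.5 CPM in Control. In Cpt1DKO, 1 of 7 endothelial and 1 of 7 stellate and matrix markers were higher. Among macrophage and Kupffer markers 1 was higher in Cpt2KO, 1 was higher and 1 lower in TKO, and 1 stellate and matrix marker was higher in Cpt2KO. The part of these marker differences in the members' values was not tested.

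The tested protein-coding genes whose pattern was nearest to that of Cdkn1a were Map3k6, Zfp9, Thbd, 6430548M08Rik and Taf4b. Likeness was the root mean square difference of log2 CPM, centred per gene, over the 20 libraries, among 9512 genes whose mean reached 5 CPM. That difference was 0.633 for Map3k6, 0.649 for Zfp9, 0.663 for Thbd, 0.674 for 6430548M08Rik and 0.683 for Taf4b, with a median of 1.18 over all genes compared. Map3k6, a MAP kinase kinase kinase gene, averaged 12.2 ± 7.26 CPM in Cpt1DKO, 10.7 ± 3.32 CPM in Cpt2KO, 14.9 ± 6.88 CPM in TKO and 10.3 ± 9.38 CPM in Cpt2PparaDKO, against 4.56 ± 1.83 CPM in Control (SD, n = 4 each). Thbd, which encodes thrombomodulin, averaged 13.04 ± 7.85 CPM, 9.80 ± 3.999 CPM, 11.8 ± 3.98 CPM and 12.5 ± 6.54 CPM in the same order of mutant groups, against 5.81 ± 2.96 CPM in Control. Both genes were low in Cpt1DKO replicate 3 and high in Cpt2PparaDKO replicate 4, as Cdkn1a was. They were chosen by likeness over these same 20 libraries, so this shared pattern is no separate evidence. Among members above that level, Gadd45b was nearest at 0.847, followed by Bax at 1.03, Ccng1 at 1.04, Mdm2 at 1.04, Sesn1 at 1.07, Bbc3 at 1.16 and Trp53inp1 at 1.36. The measure also depends on how strongly a gene varies, so values near the median of 1.18 are no sign of a shared pattern. Trp53inp1 lay above the median of all genes compared, and Gadd45a and Phlda3 were too low to be compared.

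**Figure D5:**
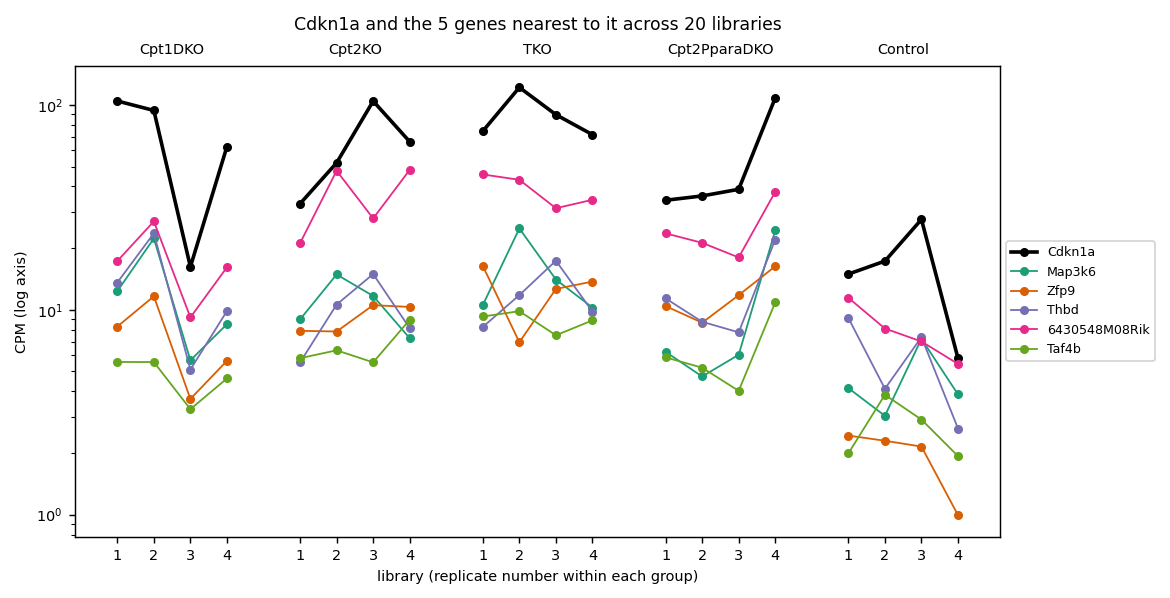
CPM on a log axis of Cdkn1a (black) and the 5 genes nearest to it in pattern, in each of the 20 libraries, grouped by genotype with Control on the right; lines join replicates of a group only to guide the eye. Cdkn1a lies at 5.79 to 27.6 CPM in Control and dips to 16.2 CPM in Cpt1DKO replicate 3.

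The authors' deposited tables of their own comparisons, read at an adjusted p under 0.05, held all of these member calls except Phlda3 in Cpt2KO against Control. The authors' deposited tables also called Bax and Gadd45a in Cpt1DKO against Control, Mdm2 in TKO against Control (log2 fold change 0.31, adjusted p = 0.0181) and Gadd45b in Cpt2PparaDKO against Control (0.93, adjusted p = 0.0392). Further calls in the authors' deposited tables were Gadd45a in the comparison of Cpt1DKO over Cpt2KO and Gadd45b and Trp53inp1 in that of TKO over Cpt2PparaDKO.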

How the data were processed

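Gene counts of 20 liver libraries, 4 per group, were used as the authors deposited them, as whole-number counts per gene that are not normalized. The authors also deposited FPKM values, which served only for levels between genes, and tables of their own comparisons, with a log2 fold change and an adjusted p-value per gene, per the file headers. The submitters' processing notes name HISAT2 and GRCm39 (mm39). Not given in the sources used here were the authors' test, the tool that counted reads and whether it used strand. Columns were assigned to libraries through the sample titles.

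Genes were filtered with filterByExpr (minimum count 10), which left 15669 of 56748, scaled with TMM factors and fitted in 1 edgeR quasi-likelihood model of all 20 libraries with group as the only factor (edgeR 4.0.16, limma 3.58.1, R 4.3.3). Two-sided tests were adjusted by the Benjamini-Hochberg method over all genes tested, with calls made at an adjusted p under 0.05. The SE was taken from the size of the log2 fold change and the F statistic (F is the squared ratio of change to SE). The model was tested on simulated data. CPM are TMM-scaled, and groups are given as mean ± SD. The members, the gene lists and the rule for named genes were chosen with earlier results of these data known. The rule took, from each list, the 3 genes with the largest change among those called in Cpt2KO against Control at a mean of at least 1 CPM, plus Trp53 and Mdm4, and the 5 genes nearest to Cdkn1a. Sesn2 stood in 2 lists. Chi-square per degree of freedom between libraries of a group was 11.5 to 151, so no library was a copy of another. Alternatives were DESeq2 1.42.0, its size factors in edgeR, no filter, a replicate block, the compared groups alone, leaving out the libraries of female pattern, and leaving out each library in turn.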

Additional observations from a re-analysis of the deposited data

Results flagged for a closer look

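Within groups of 4 libraries, 50 sets of member values were examined for a library that stood far from the other 3, and 3 were found, where chance gives about 1 in 20 sets. Cdkn1a in Cpt2PparaDKO replicate 4 was at 108.1 CPM, against 34.2 to 38.7 CPM in the other libraries of that group. Trp53inp1 in the same library was at 398.0 CPM, against 187 to 211 CPM in the others. Trp53inp1 in Control replicate 3 was at 246.02 CPM, against 149 to 158 CPM in the other Control libraries. Cpt2PparaDKO replicate 4 is one of the libraries of female pattern and had the lowest median correlation to its group among its 4 libraries and the part of that in these values was not tested.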

How the results depend on the processing

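Of 26 member calls over all comparisons, 18 were kept in every alternative tried, and of 84 member values that were not called, 12 were called in some alternative. No called value changed direction. Without a filter on low counts, 1 member was called in Cpt1DKO against Control and 3 in Cpt2KO against Control. Leaving out the libraries of female pattern gave 2 called members in Cpt2KO against Cpt1DKO and 1 in the interaction, and DESeq2 gave 2 and 1. Leaving out each library in turn gave 1 to 3 called members in Cpt1DKO against Control, 3 to 4 in Cpt2KO against Control, 1 to 2 in Cpt2KO against Cpt1DKO, 1 to 2 in Cpt2PparaDKO against TKO and 0 to 1 in the interaction. The cause was not tested. Of the recomputed counts of called list genes, over all alternatives, 263 moved by over 1.5 times and 1681 did not. The number of all genes called in Cpt1DKO against Control was 869 and ranged over the alternatives between 288 and 1581. It was 2212 in Cpt2KO against Cpt1DKO, 3822 in Cpt2PparaDKO against Cpt2KO, 8 in TKO against Cpt2KO, 729 in TKO against Cpt1DKO and 423 in the interaction, with ranges of 1192 to 3227, 2495 to 4266, 3 to 57, 278 to 1391 and 178 to 973 in that order. In Cpt2KO against Control it was 5228 (4347 to 5692), and in Cpt2PparaDKO against TKO 3019 (2286 to 3498). Member counts in this section are not set beside the all-gene count of the same alternative. A change in the members therefore cannot be told apart from a change over all genes.

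Deviations of same-numbered libraries from their group means had correlations between -0.201 and 0.233 over all comparisons. In Cpt2PparaDKO against TKO all of them were positive, at 0.00891 to 0.125. Such weak correlations cannot settle whether the replicate numbers pair the libraries, which the main fit treated as unpaired. With the replicate block, 1 member was called in Cpt1DKO against Control and 3 in Cpt2KO against Control. The number of libraries, 4 per group, limits all counts, and low counts limit Gadd45a and Phlda3.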
